A study of Mus musculus with 6 samples.

Results

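Cathepsins are the main proteases of the lysosome, and cystatin C is a secreted inhibitor of the cysteine proteases among them. The set described here comprises Ctsb, Ctsc, Ctsd, Ctse, Ctsh, Ctsk, Ctsl, Ctss, Ctsz and Cst3, chosen by gene name. All 10 were found among the 33924 genes of the table. RNA was sequenced from the RPE/choroid of C57BL/6J mice, that is, the retinal pigment epithelium and the vessel-rich choroid on which it rests, collected after the neural retina had been taken out. There were 3 young mice, labelled 1-2 months, and 3 aged mice, labelled 20-24 months in the titles and 22-24 months in the time label. No treatment is named, and all 6 mice were labelled male, whereas the study's methods name both sexes and give a higher age range for the young group. The tissue of both eyes made up a sample, and ribosomal RNA was removed before sequencing.

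In the RPE, lysosomes degrade the tips of photoreceptor outer segments that the cells engulf every day, and cathepsin D is the aspartic protease best known for that task. Cysteine cathepsins cut proteins through a catalytic cysteine, whereas aspartic cathepsins use a pair of aspartates. Cystatin C blocks the active-site cleft of cysteine cathepsins and does not inhibit aspartic ones. Macrophages, which also live in the choroid, are rich in several of these enzymes.

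The level of each gene was taken from the authors' mean over all libraries, young and aged together, in normalized counts. Per-library values were not analysed here, so no level has an SD, no depth per library is known, and no difference between young and aged mice is given. The study gives an average sequencing depth only. The means summed to 19192071 normalized counts over all genes, which is not a sequencing depth. The study's methods describe normalized counts made from TPM, a unit of relative transcript abundance already divided by length, whereas its results speak of read counts as what DESeq2 analysed. In the table the values rose with length. Among 13827 protein-coding genes with a mean of at least 10, split into 10 bins of equal size by length, the median mean normalized count was 168 in the bin of the shortest genes and 1265 in that of the longest, 7.54 times as high. Per kb the medians were 143 and 97.3. Levels of different genes are therefore compared per kilobase (kb), and the order without that division is given as well. The length is that of merged exons, all annotated exons of a gene counted once, unless the longest transcript or the coding sequence is named.

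The members fall into 3 classes, and the stretch of coding sequence that carries the function of each class is shown to make the classes visible. For the 7 cysteine cathepsins and the 2 aspartic cathepsins, 30 bases of the coding strand are given with the codon of a catalytic residue in capitals, cysteine in the former and aspartate in the latter. For Cst3 the capitals mark the 5 codons of the first inhibitory loop, in which glutamine, valine and glycine are the conserved residues. The sequences are those of GENCODE M21 transcripts (GRCm38), read 5′ to 3′.
Ctsb: tcctgcggctctTGTtgggcatttggggca
Ctsc: tcttgtggaagcTGCtactcatttgcctct
Ctsh: gcctgtggcagcTGCtggactttctctacc
Ctsk: cagtgtggttccTGTtgggctttcagctct
Ctsl: cagtgcgggtctTGTtgggcgtttagcgca
Ctss: tcttgtggtgccTGCtgggctttcagtgct
Ctsz: tactgtggttccTGCtgggcccacggcagc
Ctsd: acagtcgtctttGATactggctcctctaac
Ctse: actgtcatctttGACaccggttcatccaac
Cst3: cgtaagCAGCTCGTGGCTGGAgtgaactat

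In 8 of the 10 transcripts the printed bases lie within 1 exon. They lie at chr7:88308015-88308044 in exon 6 of Ctsc, at chr9:90064510-90064539 in exon 6 of Ctsh and at chr3:95502585-95502614 in exon 5 of Ctsk, all on the plus strand. Those of Ctss are at chr3:95545336-95545365, also on the plus strand and in exon 5. On the minus strand they lie at chr13:64367060-64367089 in exon 6 of Ctsl, at chr2:174438181-174438210 in exon 2 of Ctsz and at chr7:142383464-142383493 in exon 3 of Ctsd. Those of Ctse are at chr1:131663359-131663388 on the plus strand, in exon 4. The stretch of Ctsb joins exons 4 and 5 between 63135705 and 63136418 on chromosome 14, and that of Cst3 joins exons 1 and 2 between 148872910 and 148875161 on chromosome 2.

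Even around the catalytic cysteine the genes differed at the level of bases. Of the 30 bases, 8 were the same in all 7 cysteine cathepsins, and the 21 pairs matched at 13 to 23 positions. Ctsk matched Ctsl and Ctss at 23 positions each, and Ctsb matched Ctsl at 23. The aspartic pair, Ctsd and Ctse, also matched at 23. Over whole coding sequences, local alignment gave an identity of 55.0% to 63.6% for the 21 cysteine pairs, and of 54.8% to 61.5% for the 23 pairs from different classes. The ranges overlap, so base identity over the whole coding sequence did not separate the classes. Both local and global alignment counted identity over columns without gaps, and no baseline from unrelated genes was computed. It therefore cannot be said how far, if at all, these identities lie above that of unrelated sequences. Global alignment gave up to 68.1% within the cysteine class and up to 80.5% across classes. The latter was for Cst3, whose coding sequence is the shortest, with a far longer partner.

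This bears on the measurement, since the reads were divided among genes by their sequence. No 31-base word of a transcript was shared by any of the 45 pairs of members (0 pairs). All words of Ctsk, Ctss, Ctsz and Cst3 were found in no other gene of the annotation, and the share was over 98% for 8 members. It was 92.3% for Ctsl, which shares 365 words with the processed pseudogene Gm49230, and 66.8% for Ctsd. The latter shares 779 words with Gm49369, a gene that overlaps it on the same strand. The authors' annotation is an older Ensembl release. On the opposite strand, Ctsb overlaps Fdft1 over 774 bases of the gene span, Ctsc overlaps Gm26522 over 4743, Ctsl overlaps Gm47123 over 1971 and Ctsz overlaps Nelfcd over 10, and Ctss overlaps the pseudogene Hmgb1-ps5 over 557 bases on its own strand. Of these overlapping genes, Fdft1, Hmgb1-ps5 and Nelfcd, under its older symbol Th1l, stand in the table, and the others do not under the names searched. How reads were divided at these places is not known, so the levels of these members are uncertain to that extent.

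**Figure D1:**
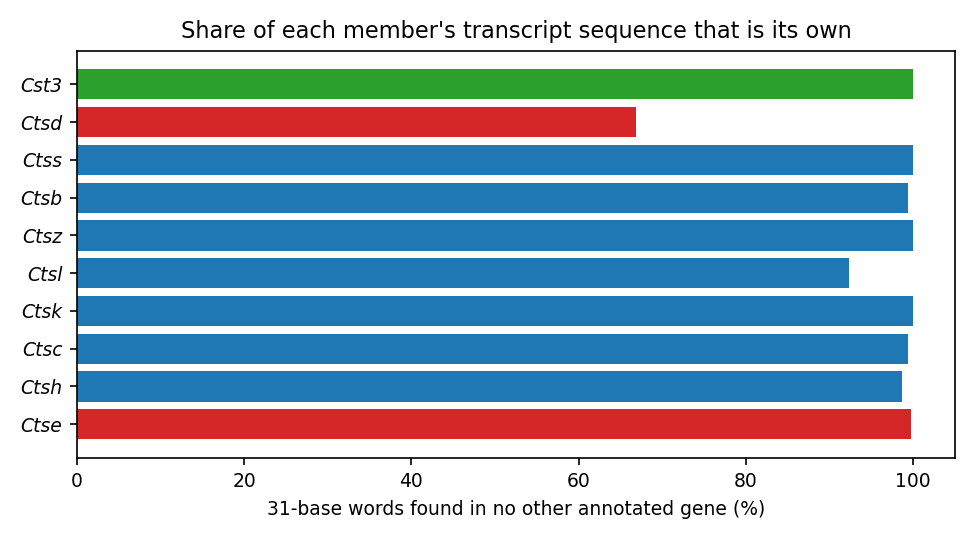
Share of each member's 31-base words that occur in no other annotated gene, in percent (bars, from 0), coloured red for aspartic cathepsins, blue for cysteine cathepsins and green for Cst3. Ctsd stands apart at 66.8% and Ctsl is at 92.3%, whereas the other members lie between 98.6% and 100%.

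Together the 10 genes held 1.07% of the summed mean normalized count of all genes, and 2.02% of the summed level per kb of the 28514 genes that matched a single annotated gene. The inhibitor and an aspartic cathepsin stood at the top. Cst3 had a level of 34807 per kb, Ctsd one of 33247 and Ctss, the highest cysteine cathepsin, one of 15288. At the other end, Ctse had 5.71 per kb. The median of the members was 3139 per kb, against 37.9 for the 22827 matched genes with a level above 0, and 9 members stood above that median. All members are protein-coding, and for matched protein-coding genes above 0 the median was 76.7 per kb.

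Cst3, on chromosome 2 at 148871722 to 148875692 (minus strand), encodes cystatin C. Its mean normalized count was 44066, and per kb it ranked 8. Its level per kb was 1.17 times the sum of the 7 cysteine cathepsins of the set, which was 29636. With the longest transcript as length this ratio was 1.59, and with the coding sequence 1.29. By mean normalized count, with no division by length, it was 0.531. Cathepsins outside the set were not in the sum. The ratio is one of RNA levels, and amounts of protein were not measured here. Among 25 other cystatin family genes found in the table, 11 were listed at 0, and the rest summed to 2081 per kb, 5.98% of the level of Cst3. Cstb, an inhibitor that stays inside the cell, was the highest of them at 1513 per kb, followed by BC100530, a stefin A-like gene, at 391. Csta1 had 42.5, Cst7, a cystatin of immune cells, 32.1, Cst6 30.4 and Fetub 25.6 per kb. Stfa1, Cst10 and Stfa3 had 14.4, 14.2 and 12.6, and the other 5, Stfa2l1, Cstl1, Csta2, Cstdc4 and Kng2, lay between 0.168 and 4.20. Cystatin C was thus the highest family member measured, by a factor of 23.0 over Cstb per kb of merged exons. This factor was 33.9 with the longest transcript and 33.8 with the coding sequence. The mean normalized count of Cstb was 912.

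Ctsd, on chromosome 7 at 142375911 to 142388038 (minus strand), encodes cathepsin D. Its mean normalized count was 78164. Per kb of merged exons it ranked 9, and Cst3 was 1.05 times as high. Cst3 was the higher under all 3 gene lengths, by a factor of 1.39 with the longest transcript and 1.65 with the coding sequence. By mean normalized count Ctsd was the higher, and Cst3 over Ctsd was 0.564. Ctse, on chromosome 1 at 131638306 to 131675505 (plus strand), encodes cathepsin E, the other aspartic member and a protease of endosomes known from gastric and immune cells. Its mean normalized count was 18.1. Ctsd therefore made up 99.98% of the aspartic class per kb.

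Among the cysteine cathepsins, levels per kb spanned a factor of 29.6 with merged exons, from Ctss to Ctsh. With the longest transcript the factor was 18.1 between the same genes, and with the coding sequence 19.9, from Ctsb to Ctsk. Ctss, at 95526786 to 95556403 on chromosome 3, encodes cathepsin S, which trims the invariant chain of MHC class II in antigen-presenting cells and remains active at neutral pH. Its mean normalized count was 20762 and its level per kb 51.6% of the class. Ctsb, at 63122462 to 63145923 on chromosome 14, encodes a broadly expressed lysosomal protease that acts as endopeptidase and carboxydipeptidase. It had a mean normalized count of 35203 and 5818 per kb, 19.6% of the class. Which of the pair was higher depended on the length used, as the merged exons of Ctsb run to 6051 bases and its coding sequence to 1017. Over the coding sequence alone, Ctsb held 42.5% of the class and Ctss 24.9%, and by mean normalized count Ctss over Ctsb was 0.590.

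Ctsz and Ctsl followed, both on the minus strand, whereas the remaining cysteine cathepsins lie on the plus strand. Ctsz, at 174427493 to 174439039 on chromosome 2, encodes a carboxypeptidase also known as cathepsin X, and had a mean normalized count of 6077 and 4217 per kb. Ctsl, at 64359337 to 64370890 on chromosome 13, encodes a potent lysosomal endopeptidase. It had a mean normalized count of 13377 and, over 6489 bases of merged exons, 2062 per kb. Over the coding sequence the order of this pair turned, with 13351 per kb for Ctsl and 6620 for Ctsz.

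Ctsk, Ctsc and Ctsh formed the lower end of the class. Ctsk, at 95499256 to 95509362 on chromosome 3, encodes the collagen-cleaving protease of bone-resorbing osteoclasts and had a mean normalized count of 1720 and 1137 per kb. It lies 17.4 kb from Ctss with 0 annotated genes between, yet Ctss was 13.4 times as high per kb. Ctsc, at 88278085 to 88310888 on chromosome 7, encodes dipeptidyl peptidase I, which activates granule serine proteases of immune cells, and had a mean normalized count of 3470 and 597 per kb. Ctsh, at 90054152 to 90076089 on chromosome 9, encodes an aminopeptidase and had a mean normalized count of 2322 and 516 per kb. Ctsc and Ctsh differed by a factor of 1.16. With a single mean per gene it cannot be said of any neighbours in this order, this pair and the leading pair of Cst3 and Ctsd included, whether they differ beyond the spread between mice.

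**Figure D2:**
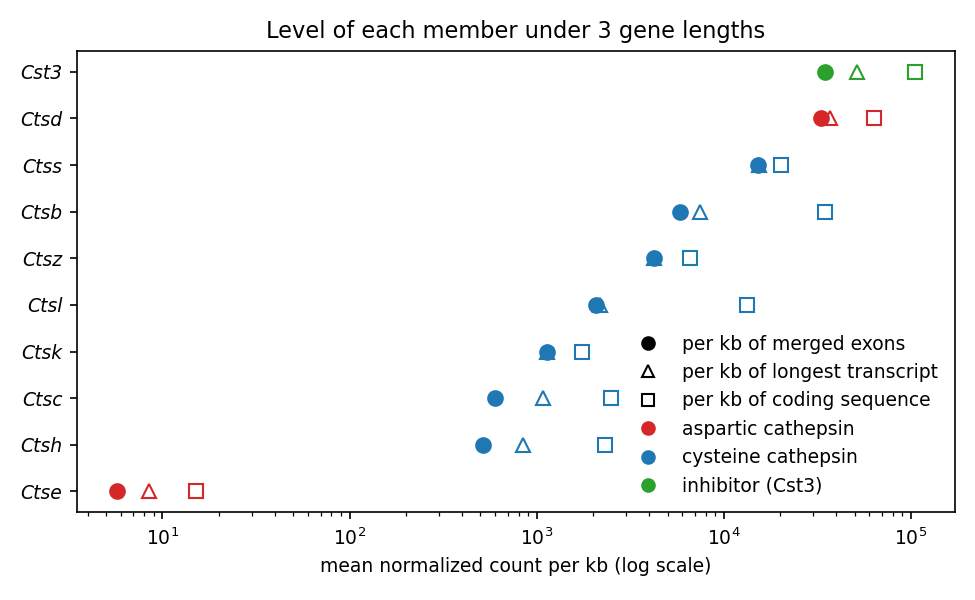
Mean normalized count per kb of each member (log axis), with the length taken as merged exons (filled circles), the longest transcript (triangles) or the coding sequence (squares); red, aspartic cathepsins, blue, cysteine cathepsins, green, Cst3. Each symbol is 1 mean over 6 libraries without an error bar. Cst3 and Ctsd lead and Ctse is last under all 3 lengths, and Ctsb and Ctsl move furthest to the right with the coding sequence, to 34615 and 13351.

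In the order of levels per kb of merged exons, Cst3 was followed by Ctsd, Ctss, Ctsb, Ctsz, Ctsl, Ctsk, Ctsc, Ctsh and Ctse. With the longest transcript in place of merged exons, 0 of the 9 neighbouring pairs changed order, although Ctsk and Ctsc came within a factor of 1.06. With the coding sequence, 3 pairs did. By mean normalized count the order was Ctsd, Cst3, Ctsb, Ctss, Ctsl, Ctsz, Ctsc, Ctsh, Ctsk and Ctse, and 4 of the 9 pairs stood the other way round. Which transcripts the tissue uses was not measured here, so the length of each gene is an assumption of its level.

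**Figure D3:**
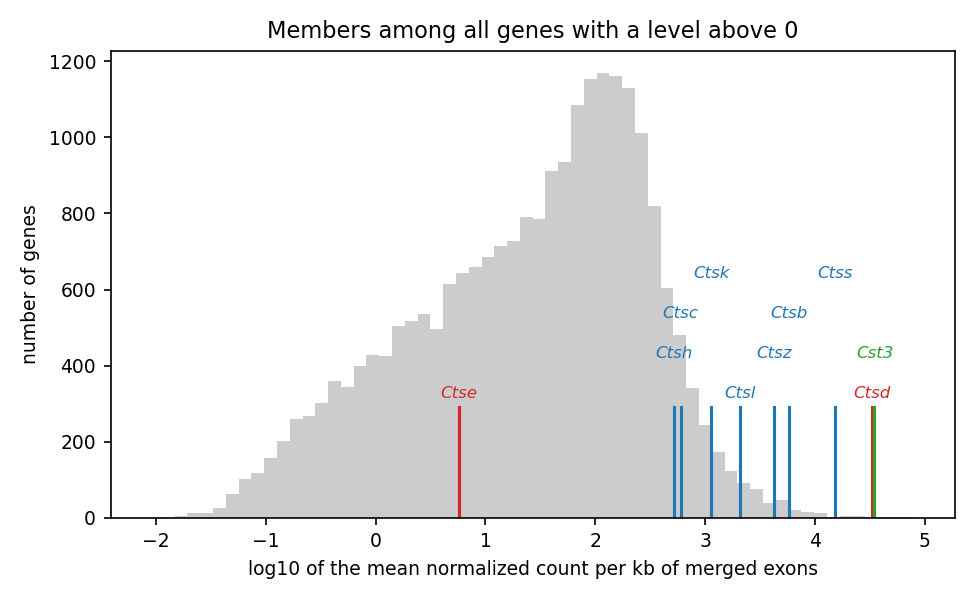
Histogram of the log10 mean normalized count per kb of merged exons for the 22827 matched genes above 0 (grey), with a vertical line at each member, coloured by class as before. The line of Ctse, at the 27.5th percentile, lies in the body of the distribution, and the lines of the other members lie in its right tail, from the 92.7th percentile (Ctsh) upwards.

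Against the other genes, the percentile of each member per kb was above 99.9 for Cst3, Ctsd and Ctss, 99.7 for Ctsb and 99.5 for Ctsz. It was 98.7 for Ctsl, 97.3 for Ctsk, 93.9 for Ctsc and 92.7 for Ctsh. Ctse was at 27.5. Of the members, 4 were among the 100 highest genes per kb.

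Other cathepsins and lysosomal relatives had a lower median than the members, although single genes among them stood above the lower members. Of the 8 listed, all were above 0, and their median was 260.7 per kb. Lgmn, the asparaginyl endopeptidase that processes cathepsins, was the highest at 1850, a level exceeded by 6 members of the set and not by Ctsk, Ctsc, Ctsh and Ctse. Ctsa, the serine carboxypeptidase also known as protective protein, had 869, Ctsf 479, the tripeptidyl peptidase Tpp1 295 and Ctso 226 per kb. Cathepsins of blood cells were low, with 29.2 per kb for Ctsw, a gene of T and NK cells, and 1.38 for Ctsg, a serine protease of neutrophils, and the aspartic protease Napsa had 23.0. Of 9 rodent placental cathepsin genes, relatives of Ctsl, 7 were listed at 0 and the remaining genes, Cts3 and Ctsj, had 0.141 and 0.126 per kb.

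Marker genes place these levels in the tissue. Of the 12 RPE markers, 11 stood above the median of all genes per kb. Rpe65, the retinoid isomerase of the RPE, had 22619 per kb and Ttr, transthyretin, 83745, the highest of all matched genes. Otx2, Mitf and Stra6 were far lower, at 912, 763 and 751 per kb. Best1, the bestrophin channel of the RPE, had 27.1 per kb, below the median of all genes, 37.9. Fibroblast markers had a median of 4474 and endothelium markers of 511 per kb. Of the 5 melanocyte markers, with a median of 7416, the pigment genes Tyr, Dct, Tyrp1 and Mlana are also expressed by the RPE. Kit, the receptor that melanocytes share with mast cells, had 85.7 per kb. The share of melanocytes in the level of the RPE markers, Pmel at 25159 per kb among them, was not tested. Rod markers had a median of 1520 per kb, so RNA of rods was also present after the retina had been removed.

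The 12 genes listed as macrophage markers had a median of 634 per kb, from 34.0 for Lyve1 to 3633 for the complement gene C1qa. There were 5 members above the highest of them. Per kb, Ctss was 21.7 times as high as Csf1r, the receptor for macrophage growth factor. This factor was 17.7 with the longest transcript and 14.6 with the coding sequence. Mean normalized counts were 20762 for Ctss and 4063 for Csf1r. Whether other cells of the tissue, the RPE included, also express the listed genes, Mertk at 565 among them, was not tested. Markers of osteoclasts, the cells in which Ctsk is best known, had a median of 3.81. Among these, Acp5, an acid phosphatase also made by macrophages, was the highest at 166. Tnfrsf11a had 42.6, Mmp9 14.6, Dcstamp 3.81, Calcr 2.04, Oscar 1.80 and Ocstamp 1.02. Mast cell markers had a median of 179 per kb, B cell markers of 11.2 and T and NK cell markers of 8.48. In such bulk samples, fewer cells of a type and less RNA per cell cannot be told apart, and the share of each cell type in the level of a cathepsin was not tested.

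**Figure D4:**
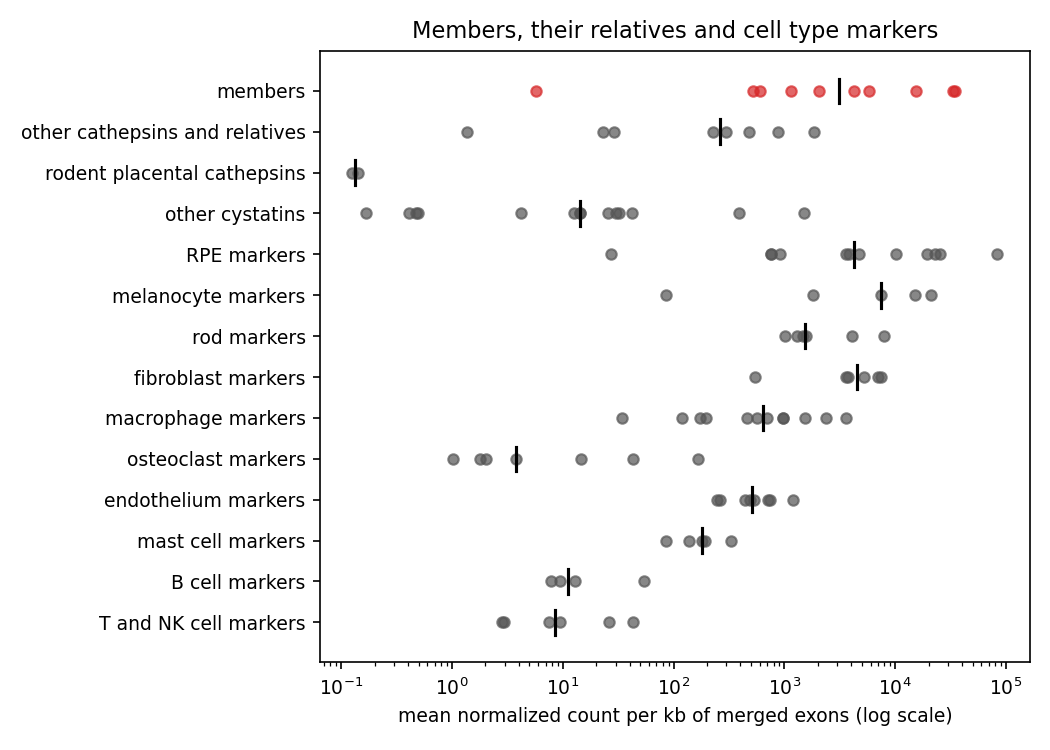
Mean normalized count per kb of merged exons (log axis) for the members (red) and for genes of the other lists (grey), with 1 point per gene above 0 and a black bar at the median of each list. The members' median of 3139 lies between that of the rod markers and that of the RPE markers, 4260, and above those of the other cathepsins (260.7) and other cystatins (14.3).

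Promoter sequences, 250 bases before and 50 after the start of a gene in RefSeq (GRCm38.p6), were at hand for 7 members, with the start as RefSeq gives it. Those of Ctsb, Ctse and Ctsh were not at hand and were not searched. The letters CACGTG, the E-box recognised by TFEB, a transcription factor of lysosomal genes, occurred in those of Ctsd and Ctsl, and in 7.15% of all 32851 promoters. The longer forms GTCACGTG or CACGTGAC occurred in Ctsd alone, in both places, and in 2.25% of all promoters. These stretches are shown with the E-box in capitals, as they are the only such matches in the 7 promoters.
Ctsd, distal: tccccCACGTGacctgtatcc
Ctsd, proximal: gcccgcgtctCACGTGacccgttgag
Ctsl: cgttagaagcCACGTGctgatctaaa

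They lie on the minus strand, the distal stretch of Ctsd at chr7:142388057-142388077 and the proximal at chr7:142387910-142387935, with their E-boxes starting 245 and 98 bases before the RefSeq start. That of Ctsl is at chr13:64370741-64370766 and its E-box starts 236 bases before the RefSeq start. The GENCODE spans printed above begin further upstream, by 211 bases for Ctsd and by 370 for Ctsl. Against these, the distal E-box of Ctsd starts 34 bases before the gene. The proximal one starts 113 bases inside it, in an untranslated exon part of 1 of 3 transcripts, and that of Ctsl starts 134 bases inside the gene, where it overlaps an untranslated exon part of 1 of 7 transcripts. Other letters were searched on both strands of the same windows. GGGCGG was found in Cst3, Ctsc, Ctsd, Ctss and Ctsz, 5 of 7 members, and in 35.7% of all promoters. GAGGAA, part of the site of the myeloid factor PU.1, was found in Cst3, Ctsc, Ctsk and Ctss, and in 28.3% of all promoters. TATAAA was found in Ctss alone and in 13.6% of all. A match of letters is a description and shows no binding.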

How the data were processed

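Total RNA of 3 young and 3 aged RPE/choroid samples was depleted of ribosomal RNA and made into stranded libraries without poly(A) selection. The authors used BBDuk for trimming, STAR for mapping to Ensembl transcripts (GRCm38) and Sailfish for TPM values, turned these into normalized counts by total count scaling and tested age groups in DESeq2, whose input the study calls read counts. That the normalized counts from TPM were this input is not stated. The deposited baseMean is a normalized signal, the authors' mean over all libraries, and the only column used. The other 5 numeric columns hold the authors' own comparison of the age groups (log2 fold change, its standard error, statistic, p and adjusted p); they are not used here, so the planned comparison of aged and young mice was not made. The table held 0 columns for single samples. How reads that fit several genes or strands were assigned is not given in the sources used here.

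Lengths and positions came from GENCODE M21 (GRCm38), matched by symbol; 84.1% of genes, holding 91.6% of the summed mean, matched a single annotated gene. Symbols of listed genes absent from the table were looked up through RefSeq synonyms. Percentiles are mid-ranks. Identities were computed with Biopython 1.88 and plots with matplotlib 3.10.9, under Python 3.11.15. The functions for percentiles, merged lengths and shared words were tested on simulated data. Protein sequences were not used here, so the planned protein identities were replaced by those of coding sequences. The genes named are the members and every gene above 0 in the lists of other cathepsins and cystatins, with cell type markers from a list. Genes that overlap a member were named after their overlap was seen. The members and lists were chosen with earlier results of these data known. As each value is a mean of 6 libraries without replicate values, no test was run.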

Additional observations from a re-analysis of the deposited data

How the results depend on the processing

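No paired analysis was possible because no value per library was analysed. For the same reason leaving out each library and the other tools, normalizations, filters and pseudocounts planned for the age comparison were not run. The share of the 10 genes in the summed mean was 1.07% over all genes and over genes with a mean of at least 10, and 1.23% over genes with a RefSeq protein. The median percentile of the members was 99.1 by count and per kb, 98.69 among genes with a mean of at least 10, and 98.66 among genes with a RefSeq protein. The share of Cst3 in the members' summed level per kb was 35.6% with merged exons, 42.6% with the longest transcript and 42.0% with the coding sequence, and 21.5% of the summed mean normalized count with no length. With the coding sequence, Ctss over Ctsb fell below 1 to 0.586, Ctsz over Ctsl to 0.496 and Ctsk over Ctsc to 0.696; coding lengths leave out the untranslated parts by construction. With no division by length, an alternative chosen after seeing the data, these ratios were 0.590, 0.454 and 0.496, and Cst3 over Ctsd was 0.564. The median coding identity within classes was 59.6% by global and 58.8% by local alignment. The 8-letter E-box left 1 promoter of 2, as it is stricter. Without replicate values, no limit of detection can be given for any of these levels.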
